A study of Rattus norvegicus with 11 samples.

Results

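The 4 genes described are Gria1, Gria2, Gria3 and Gria4, which encode the subunits of the AMPA-type glutamate receptor. They were taken by name: every non-control probe that the array files label with 1 of these 4 gene names was included, which gave 6 probes of 41012, for 4 of 35581 distinct names. All 6 probes were detected on every array and tested, so no member was lost to a filter on low signal. The arrays measured RNA from the medial prefrontal cortex of male rats aged 4 months. In the heroin group, 6 rats had self-administered heroin, and in the saline group 5 rats had received yoked saline infusions, that is, an infusion of saline whenever a partner rat earned heroin. Both groups were then kept without drug for 14 days. They were returned to the test chamber for an extinction session without drug directly before the tissue was taken. The abstinence and the session are thus shared by the groups. The drug is not, and neither is control over the infusions, which only the heroin rats earned. Responding in the session was not analysed here and need not have been equal. The labelled cRNA of each rat was hybridised to an Agilent array of its own, in a single colour, with probes 60 bases long.

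AMPA receptors are ion channels of 4 subunits that carry most of the fast excitatory current at glutamate synapses, and the number of them at a synapse rises and falls with activity. Gria2 sets the ion selectivity of the channel: its transcript is edited so that receptors that hold the edited subunit pass little calcium, whereas receptors without it are permeable to calcium. Gria1 is the subunit best known for being added to synapses by activity, Gria3 usually pairs with Gria2, and Gria4 in the adult cortex is associated above all with interneurons.

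The probe sequences show which part of each transcript was measured. Gria1 (NM_031608) was measured by 1 probe, spotted 10 times and without a genome position in the files. Gria2 (NM_017261) had a probe spotted 10 times at chr2:172216995-172217054 and a second at chr2:172216693-172216752. Gria3 (NM_032990) had 1 probe at chrX:3465270-3465329. Gria4 (NM_017263) had a probe at chr8:957385-957444 and another at chr8:963017-963076. The array files state these positions in rat build rn3, all on the minus strand. The exon or untranslated region each lies in was not analysed here. The Gria1 probe and the second Gria4 probe are shown because they cover matching stretches of the 2 transcripts. Capitals mark the bases at which they differ:
Gria1 A_43_P15761: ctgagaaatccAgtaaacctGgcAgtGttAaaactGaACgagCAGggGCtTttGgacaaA
Gria4 A_44_P349199: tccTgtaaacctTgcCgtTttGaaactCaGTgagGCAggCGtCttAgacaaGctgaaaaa
Aligned without gaps over 52 bases, these sequences share 36 bases, or 69.23%. AMPA subunit transcripts carry an alternatively spliced segment with 2 forms, called flip and flop. From what is known of the family, both probes lie in it. Which form each probe matches was not analysed, so the marked bases may reflect form as well as gene. The signals, shares and ratios below were not separated by form. Each of these 2 probes may read mainly 1 form, so the Gria1 signal need not be that of all Gria1 transcripts. The Gria4 average and share combine such a probe with the other Gria4 probe. The remaining Gria3 and Gria4 probes, shown whole with no base marked, read:
Gria3 A_44_P449764: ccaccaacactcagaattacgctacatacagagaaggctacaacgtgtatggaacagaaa
Gria4 A_44_P323349: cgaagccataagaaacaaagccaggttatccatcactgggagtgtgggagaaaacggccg
For the Gria2 probes, on which the results turn, the first 30 bases are shown, with stop triplets in capitals:
Gria2 A_44_P289630: agatcattcaaaaTAAttTGAgtgcattac
Gria2 A_44_P289627: gacaagaacataTAAtgTAAgagtatctca
Those 30 bases hold a stop triplet in 2 reading frames. Over all 60 bases, which are not printed whole, each Gria2 probe holds one in all 3 reading frames, unlike the other 4 subunit probes, as do 15.46% of all 41012 probes, so neither can lie wholly within coding sequence. The starts of the Gria2 probes are 302 bases apart on the genome and those of the Gria4 probes 5632 bases.

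The array signals were divided by each array's median, so a signal of 10 is 10 times the median probe of that rat. Before this step the array medians were 42.7 to 78.3 in the heroin group and 58.0 to 83.2 in the saline group. With this scaling the median log2 difference, heroin minus saline, of the 25555 tested probes was 0.18, against 0.01 after quantile normalization and -0.03 after scaling to the 75th percentile. Changes are therefore given on the main scale, with the value after quantile normalization beside them. Same-numbered heroin and saline arrays (2 to 6) shared a scan time, and every heroin array lay at position 4 of its slide and every saline array at position 3, so group and position cannot be told apart. Of 6 marker genes of excitatory neurons, 5 were on the array and all 5 were detected in every rat. Of 7 striatal markers, 6 were also detected in every rat, and Drd2 was not.

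Gria2 was the subunit gene whose probes were past both thresholds used here, which are a limma p, unadjusted, below 0.02 together with a 1.4-fold or larger change. The study applied the same limits to a test that does not assume equal variances, called the methods' t-test here, and by that test A_44_P289630 passed and A_44_P289627 did not. By limma the 2 Gria2 probes were higher in the heroin rats, and none of the other 4 subunit probes passed. Among all tested probes, 2.72% passed in either direction and 1.79% passed as higher. In all, 4 of the 6 subunit probes had a higher mean in the heroin rats, where 78.7% of all tested probes did, and after quantile normalization it was again 4 of 6, against 53.2%. No probe on the array reached a Benjamini-Hochberg adjusted p under 0.05 with limma, where 4723 probes had an unadjusted p under 0.05, or with the methods' t-test, where 4127 did.

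**Figure D1:**
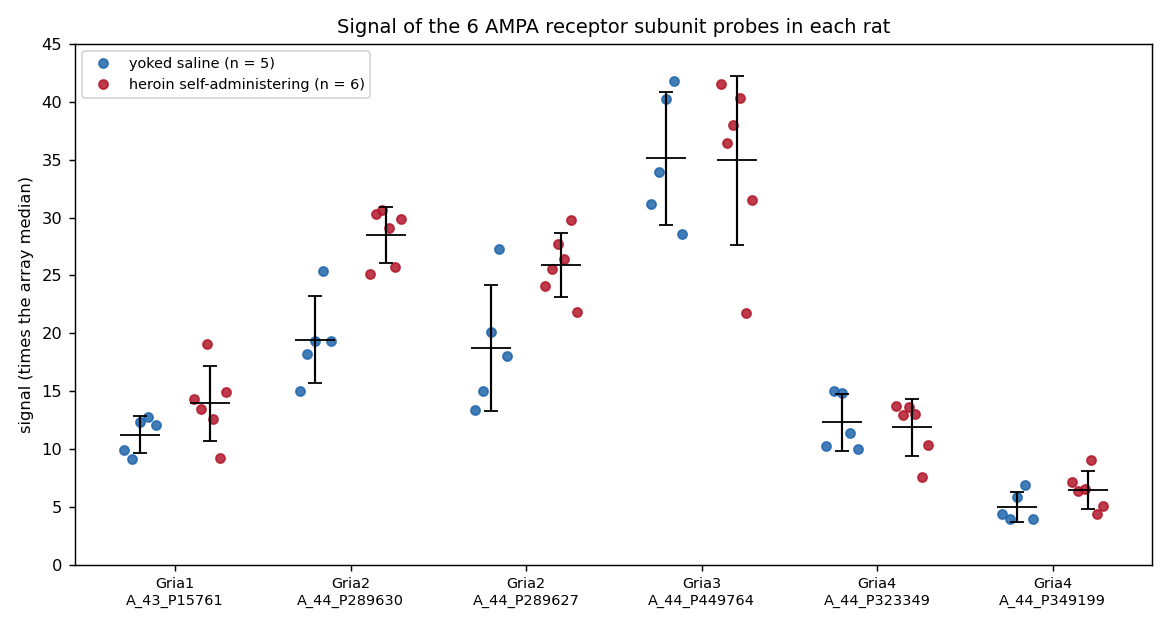
Signal of each of the 6 subunit probes in each rat, in multiples of the array median (vertical axis), for the 5 saline rats (blue) and 6 heroin rats (red). Horizontal lines are means and bars SDs. For the Gria2 probe A_44_P289630, 5 of the 6 heroin rats lie above the highest saline rat, while the groups overlap broadly for Gria3 and Gria4.

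The 10-spot Gria2 probe, A_44_P289630, gave signals of 15.0, 18.2, 19.3, 25.4 and 19.3 array medians in saline rats 2 to 6. In the heroin rats the lowest was 25.1, the median 29.5 and the highest 30.7. Heroin rat 1, at 25.1, was below saline rat 5, at 25.4, and the other 5 heroin rats were above every saline rat. Complete separation in this direction occurred for 1.66% of all tested probes and was not reached here. How common a count of 5 of 6, or the counts of the other subunit probes, is among all tested probes is not known here. The means were 28.5 ± 2.43 (SD, n = 6) and 19.4 ± 3.76 (SD, n = 5), a difference of 0.57 on the log2 scale (SE 0.14) or 1.48-fold. The limma p was 9.96e-04 (Benjamini-Hochberg adjusted p = 0.263), and a two-sided exact permutation test over all divisions of the 11 rats into groups of 6 and 5 gave p = 0.00433, where the smallest possible p is 0.00216. After quantile normalization the difference was 0.32 (SE 0.10, limma p = 0.00691, exact permutation p = 0.00866), which is less than 1.4-fold. This probe is on the list that the study selected on these same arrays, so its direction is not independent evidence. The study's RT-qPCR values were not analysed here. Without saline rat 2, which had the lowest signal, the difference was 0.48 and just missed 1.4-fold.

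The second Gria2 probe, A_44_P289627, is a single spot and is not on that list, but it measured the same gene in the same rats. Its signals in saline rats 2 to 6 were 13.4, 15.0, 20.1, 27.3 and 18.0 array medians, and the heroin rats had a lowest signal of 21.8, a median of 25.9 and a highest of 29.8. Again saline rat 5 was the one saline rat within the heroin range, and 2 heroin rats were above it. The means were 25.9 ± 2.79 (SD, n = 6) and 18.7 ± 5.44 (SD, n = 5), a difference of 0.50 on the log2 scale (SE 0.17), or 1.42-fold. By limma p was 0.00966 (Benjamini-Hochberg adjusted p = 0.263), with an exact permutation p of 0.0216. After quantile normalization the difference was 0.26 (limma p = 0.0787, exact permutation p = 0.102). This call was less stable than that of the first probe: it was lost without heroin rat 3 (0.48), heroin rat 5 (0.46), saline rat 2 (0.39) or saline rat 3 (0.44). Averaged over both probes on the main scale, Gria2 differed by 0.54 (SE 0.15, limma p = 0.00251, exact permutation p = 0.00649), where 2.46% of 21763 gene averages passed both thresholds. After quantile normalization both probes, at 0.32 and 0.26, were less than 1.4-fold, and so was their average.

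The replicated spots measure the noise between spots of an array, and not that of labelling, hybridisation, slide position or scaling. Across the 9 to 10 usable spots of probe A_44_P289630 on an array, the SD of the log2 signal was between 0.036 and 0.089, a standard error of at most 0.028 for the mean of the spots. Between rats the SD was 0.13 in the heroin group and 0.27 in the saline group. On this main scale the spread was narrower among heroin rats for both Gria2 probes (0.16 against 0.40 for A_44_P289627). After quantile normalization their ranges were not narrower. The log2 signals of A_44_P289630 were then 10.52 to 10.88 in heroin rats and 10.25 to 10.59 in saline rats. Those of A_44_P289627 were 10.35 to 10.97 and 10.09 to 10.67. For the other subunit genes the heroin rats varied as much or more on the main scale. Their SDs were 0.34 against 0.21 for Gria1 and 0.35 against 0.24 for Gria3. For Gria4 they were 0.34 against 0.29 (A_44_P323349) and 0.37 against 0.36 (A_44_P349199). These differences in spread were not tested.

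Gria1 had signals of 9.88, 9.13, 12.3, 12.7 and 12.1 array medians in saline rats 2 to 6, and in the heroin rats a lowest of 9.20, a median of 13.9 and a highest of 19.1. The groups overlapped, with 4 of 6 heroin rats above the highest saline rat and heroin rat 5 near the lowest. The means of 13.9 ± 3.23 (SD, n = 6) and 11.2 ± 1.60 (SD, n = 5) differed by 0.29 on the log2 scale (SE 0.17). This did not pass (limma p = 0.108, Benjamini-Hochberg adjusted p = 0.319, exact permutation p = 0.126), and after quantile normalization the difference was 0.05 (SE 0.14). Its spots were as precise as those of Gria2, with an SD of 0.036 to 0.087 over 8 to 10 spots, against 0.34 between heroin rats.

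Gria3 had nearly equal means in the groups. Saline rats 2 to 6 had 31.1, 33.9, 40.3, 41.8 and 28.5 array medians, and the heroin rats ranged from 21.8 to 41.5 with a median of 37.2. The lowest rat of either group was heroin rat 5. The means of 34.9 ± 7.34 (SD, n = 6) and 35.1 ± 5.75 (SD, n = 5) differed by -0.02 on the log2 scale (SE 0.17, limma p = 0.889, exact permutation p = 0.909). Relative to the median tested probe Gria3 was at -0.21, and after quantile normalization at -0.27 (SE 0.13, limma p = 0.0678, exact permutation p = 0.0476). Gria3 passed the thresholds under neither scaling.

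The Gria4 probes gave different answers. A_44_P323349 had 10.3, 15.0, 14.9, 11.4 and 10.01 array medians in saline rats 2 to 6 and a lowest of 7.55, a median of 12.9 and a highest of 13.7 in the heroin rats, and no heroin rat was above the highest saline rat. Its difference was -0.06 on the log2 scale (SE 0.18, limma p = 0.738, exact permutation p = 0.779), or -0.30 (SE 0.16) after quantile normalization. A_44_P349199, in the alternatively spliced segment, had 4.33, 3.93, 5.80, 6.91 and 3.96 in the saline rats and a lowest of 4.33, a median of 6.43 and a highest of 9.04 in the heroin rats. Here 2 heroin rats were above the highest saline rat, and the difference was 0.36 (SE 0.20, limma p = 0.0934, exact permutation p = 0.141), or 0.14 (SE 0.16) after quantile normalization. The log2 ratio of the 2 Gria4 probes ran from 0.52 to 1.94 across rats (SD 0.38), and that of the 2 Gria2 probes from -0.21 to 0.45 (SD 0.19), so the Gria4 probes followed each other less closely. Averaged on the main scale, they differed by 0.15 between groups (SE 0.17, limma p = 0.404, exact permutation p = 0.420). After quantile normalization, with the probes at -0.30 and 0.14, the average turned negative.

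**Figure D2:**
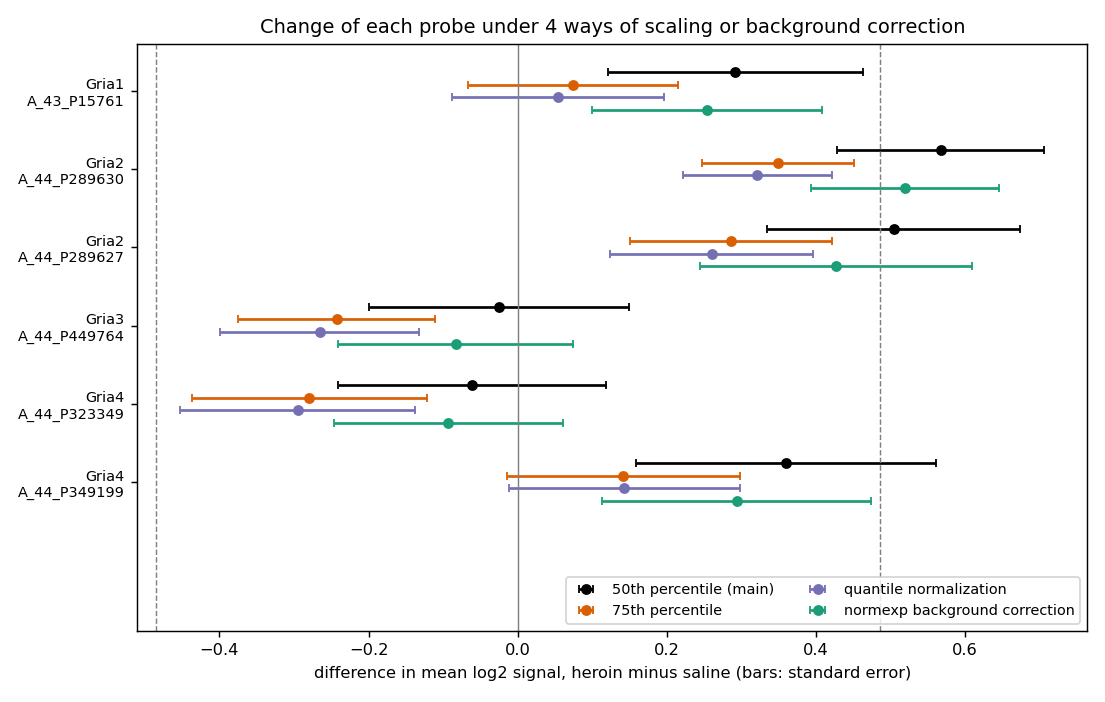
Difference in mean log2 signal, heroin minus saline, for each subunit probe (horizontal axis; points are estimates, bars limma standard errors) with scaling to the 50th or 75th percentile, quantile normalization, or normexp background correction. Dashed lines mark 1.4-fold. Both Gria2 probes stay above 0 in all 4, but lie past 1.4-fold under the main scaling (0.57 and 0.50) and not after quantile normalization (0.32 and 0.26), while Gria3 and the Gria4 probe A_44_P323349 lie below 0.

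Rats whose arrays shared a scan can be compared without the difference between scans, and such pairs are named here by their replicate number. Within pairs 2 to 6 the heroin rat exceeded the saline rat on probe A_44_P289630 by 1.02, 0.76, 0.59, 0.02 and 0.63 on the log2 scale, and on A_44_P289627 by 0.93, 0.89, 0.39, 0.13 and 0.28. Both Gria2 probes were higher in 5 of 5 pairs, as were 9.20% of all tested probes. Quantile normalization left A_44_P289630 higher in 5 of 5 (0.19 to 0.63; 4.94% of all probes) and A_44_P289627 in 4 of 5. By contrast, Gria3 went from 4 of 5 higher to 0 of 5 with quantile normalization, and A_44_P323349 of Gria4 from 2 of 5 to 0 of 5. Gria1 was higher in 4 of 5 pairs on the main scale and in 2 of 5 after quantile normalization, and A_44_P349199 of Gria4 in 4 of 5 on both. In pair 5 all probes other than those of Gria2 were lower in its heroin rat by 0.47 to 0.94, where the median tested probe was lower by 0.10.

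**Figure D3:**
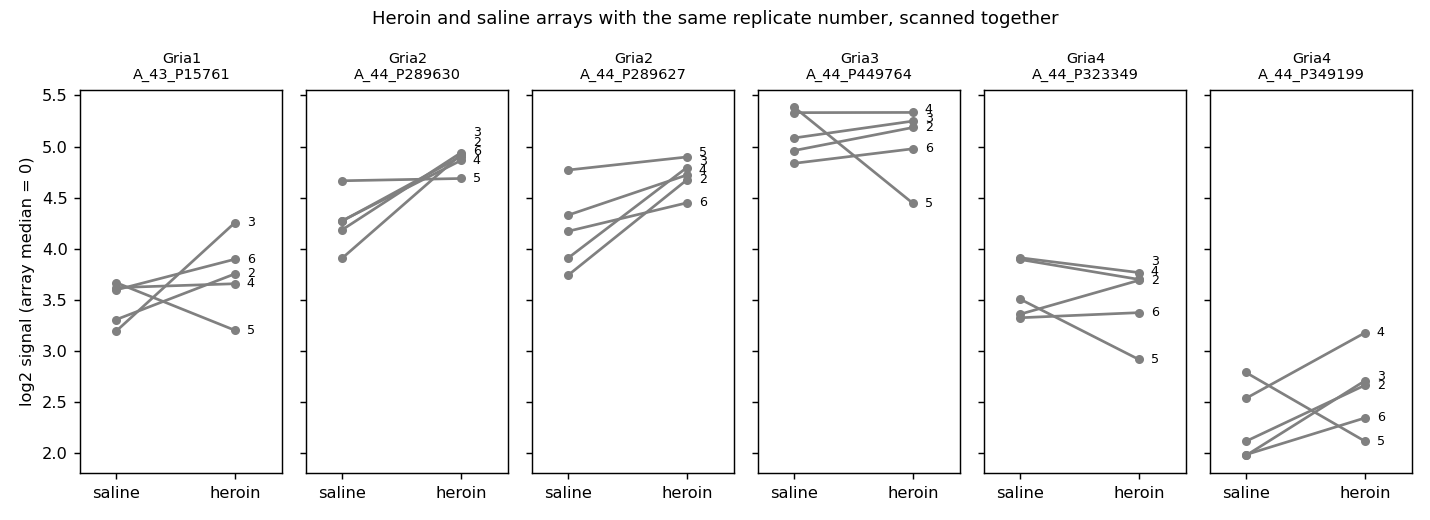
Log2 signal in units where the array median is 0 (vertical axis), with a line joining the saline and the heroin rat scanned together (numbers are the replicate number). Lines for both Gria2 probes go up in all 5 pairs, and in pair 5 those of the other 4 probes go down.

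The make-up of the subunit RNA signal was described as the share of each gene in the summed signal of the 4 genes, with the geometric mean of a gene's probes. Subunit protein and assembled receptors were not measured. A share depends on how well a probe binds, so shares of different genes in 1 rat are not amounts of subunit, and they are compared between rats only. Array scaling cancels in a share. Because shares combine the members, no test was made of them, and their counts of rats have no value over all probes beside them.

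Gria2 made up 22.9, 24.6, 24.2, 29.3 and 28.4% of the signal in saline rats 2 to 6. In the heroin rats its share was lowest at 27.2%, with a median of 31.3% and a highest of 43.0%, so 5 of 6 heroin rats were above the highest saline rat. The mean share was 32.5% ± 5.44 (SD, n = 6) against 25.9% ± 2.83 (SD, n = 5), which is 6.68 percentage points more. Gria3 showed the opposite order, with 50.4, 50.4, 49.4, 46.6 and 43.5% in saline rats and 33.8 to 46.0% (median 40.9%) in heroin rats, 4 of which were below the lowest saline rat. Its means were 40.9% ± 4.24 (SD, n = 6) and 48.1% ± 2.96 (SD, n = 5). Gria1 took 16.4% ± 2.48 (SD, n = 6) and 15.4% ± 1.91 (SD, n = 5), and Gria4 10.2% ± 1.12 (SD, n = 6) and 10.6% ± 0.848 (SD, n = 5), both differing by less than the spread between rats. The shares of 1 rat sum to the whole, so the larger Gria2 share and the smaller Gria3 share are not separate results. Heroin rat 5 had the most extreme share of both genes, and without it the Gria2 difference was 4.59 points and that of Gria3 -5.76 points. With quantile-normalized signals the Gria2 difference was 6.58 points.

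**Figure D4:**
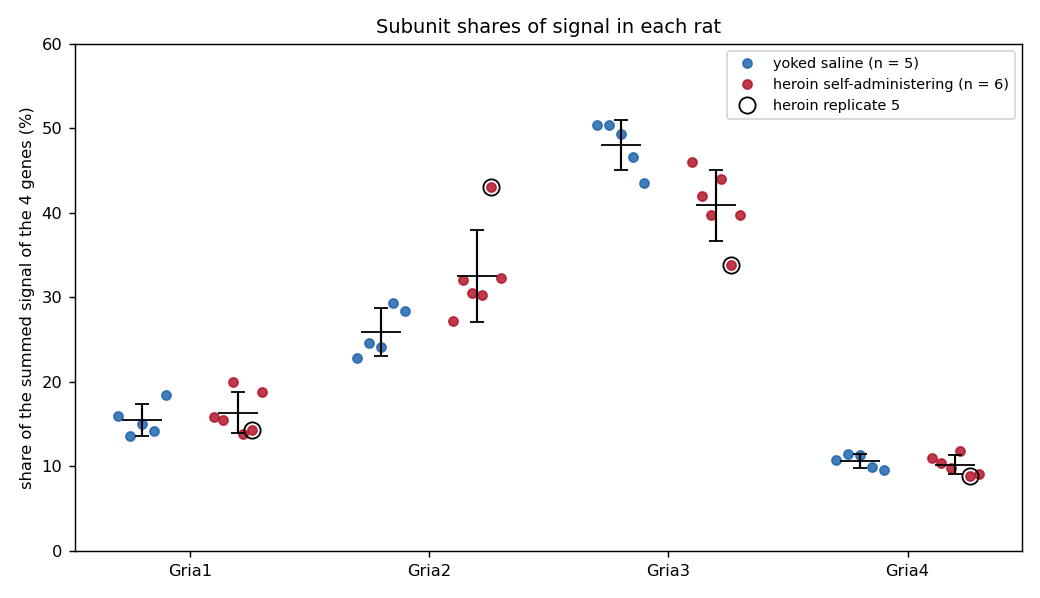
Share of each gene in the summed signal of Gria1 to Gria4 (vertical axis, percent) for 5 saline rats (blue) and 6 heroin rats (red). Lines are means, bars SDs, and heroin replicate 5 is ringed. The heroin rats lie higher for Gria2 (27.2 to 43.0% against 22.9 to 29.3%) and lower for Gria3 (33.8 to 46.0% against 43.5 to 50.4%).

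Ratios between single probes need no array scaling either and are given on the log2 scale. Counts for ratios of other probes are not given, so how common the counts of rats and pairs below are is not known here. The ratio of A_44_P289630 to the Gria3 probe was higher by 0.59 in the heroin rats, with 5 of 6 above every saline rat and 5 of 5 pairs higher. Against the Gria4 probe A_44_P323349 it was higher by 0.63, again with 5 of 6 rats and 5 of 5 pairs. Against Gria1 the ratio was higher by 0.28, with 4 of 6 heroin rats above every saline rat, and against A_44_P349199 of Gria4 by 0.21, with 2 of 6. The ratios of the second Gria2 probe were higher by 0.53 against Gria3 (5 of 6 heroin rats above every saline rat, 5 of 5 pairs higher), by 0.57 against A_44_P323349 (1 of 6, 5 of 5), by 0.21 against Gria1 (1 of 6, 3 of 5) and by 0.14 against A_44_P349199 (1 of 6, 3 of 5).

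Tissue of this kind mixes cell types, so fewer cells of a type and less RNA per cell cannot be told apart. The summed signal of the 5 excitatory neuron markers was 264 to 370 array medians in the heroin rats and 234 to 335 in the saline rats, with a median probe difference of 0.31, or 0.13 after quantile normalization, and 0 of 5 probes passed. The 6 interneuron markers summed to 352 to 459 and 277 to 383, with a median difference of 0.20 (-0.05 after quantile normalization) and 1 of 8 probes past the thresholds, which was higher. The 7 oligodendrocyte markers, at 355 to 888 and 298 to 928, had a median difference of 0.01 (-0.24 after quantile normalization), and the 6 astrocyte markers, at 511 to 716 and 446 to 694, one of 0.17 (-0.08). Of 7 striatal markers, 6 were detected in every rat, summing to 37.2 to 47.2 and 31.1 to 79.9, with a median difference of -0.12 (-0.30), and 0 of 7 probes passed. The part of these cell types in the Gria2 difference was not tested.

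Genes that act on the AMPA receptor were mostly higher than the median probe, and 1 probe passed. Of 81 listed genes, 70 were on the array and 67 were tested, by 94 probes. Only 1 of the 94 probes (1.06%) passed the thresholds, against the 2.72% of all tested probes. The median difference over the 94 was 0.27 on the log2 scale, or 0.06 after quantile normalization, where the medians of all tested probes were 0.18 and 0.01, and 71 of the 94 lay above the 0.18.

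The probe that passed belongs to Elavl4, a neuronal RNA-binding protein of the list of RNA editing and splicing factors. Probe A_44_P941612 ranged from 16.5 to 21.9 array medians in the heroin rats and from 10.7 to 17.7 in the saline rats, a difference of 0.51 (SE 0.15, limma p = 0.00326, exact permutation p = 0.00866). After quantile normalization this was 0.26 and less than 1.4-fold, and the call was also lost without heroin rat 5 (0.48), heroin rat 6 (0.47), saline rat 2 (0.43) or saline rat 3 (0.46). The other 3 Elavl4 probes differed by 0.36, 0.32 and 0.32 and did not pass. The median of the 12 probes of this list was 0.32, or 0.10 after quantile normalization. Adarb1, the enzyme that edits the Gria2 transcript, was at 0.32, or 0.07 after quantile normalization, and did not pass.

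Auxiliary subunits, which bind the pore-forming subunits and shape their gating and surface delivery, had 12 tested probes, of which 0 passed. Their median difference was 0.23, or 0.02 after quantile normalization. Gsg1l, an auxiliary subunit that dampens the current, was at 0.44 (limma p = 0.00587, exact permutation p = 0.00649, Benjamini-Hochberg adjusted p = 0.263) and at 0.39 after quantile normalization. It was at 0.23 with the 75th percentile, 0.25 with the median of the tested probes and 0.27 with normexp. Its signals were 1.38 to 2.05 array medians in the heroin rats and 0.994 to 1.41 in the saline rats. Olfm2, a secreted protein found with the receptor, was at 0.34 (limma p = 0.0237, exact permutation p = 0.0195), or 0.12 after quantile normalization. Cacng2 (stargazin), the best known auxiliary subunit, was at 0.22, Cacng3 at 0.17 and Cacng8 at 0.25, and after quantile normalization they were at -0.01, -0.06 and 0.03, so the direction of Cacng2 and Cacng3 turned.

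Scaffold, adaptor and trafficking proteins had 41 tested probes, of which 0 passed, with a median of 0.25, or 0.06 after quantile normalization. Those with the smallest p on their brightest probe were Vps35 of the retromer, which returns receptors from endosomes, at 0.37 (limma p = 0.0143, exact permutation p = 0.00649), Rab11a of recycling endosomes at 0.38 (limma p = 0.0190, exact permutation p = 0.0238), and Ap2b1 of the clathrin adaptor at 0.31 (limma p = 0.0290, exact permutation p = 0.0195). Of proteins known to bind Gria2, the brightest probes of Grip1, Grip2, Pick1 and Nsf were at 0.24, 0.31, 0.27 and 0.13. After quantile normalization they were at 0.03, 0.29, 0.05 and -0.10, so that of Nsf turned.

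Nptxr, the neuronal pentraxin receptor that clusters AMPA receptors from outside the cell, was at 0.43 (limma p = 0.0103, exact permutation p = 0.00866). The 5 probes for such clustering proteins had a median of 0.37, or 0.15 after quantile normalization, and 0 passed. Kinases and phosphatases had 22 probes, of which 0 passed, with a median of 0.27. Prkcb, a protein kinase C gene, was at 0.37 (limma p = 0.0127, exact permutation p = 0.00433), and Ppp1cb and Ppp1cc, catalytic subunits of protein phosphatase 1, were at 0.37 (limma p = 0.0199, exact permutation p = 0.00649) and 0.39 (limma p = 0.0259, exact permutation p = 0.0368). After quantile normalization Nptxr was at 0.18 and the others of this and the preceding paragraph that are given with a p at 0.06 to 0.13. The 2 delta receptor genes had a median of 0.19, and neither probe passed.

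**Figure D5:**
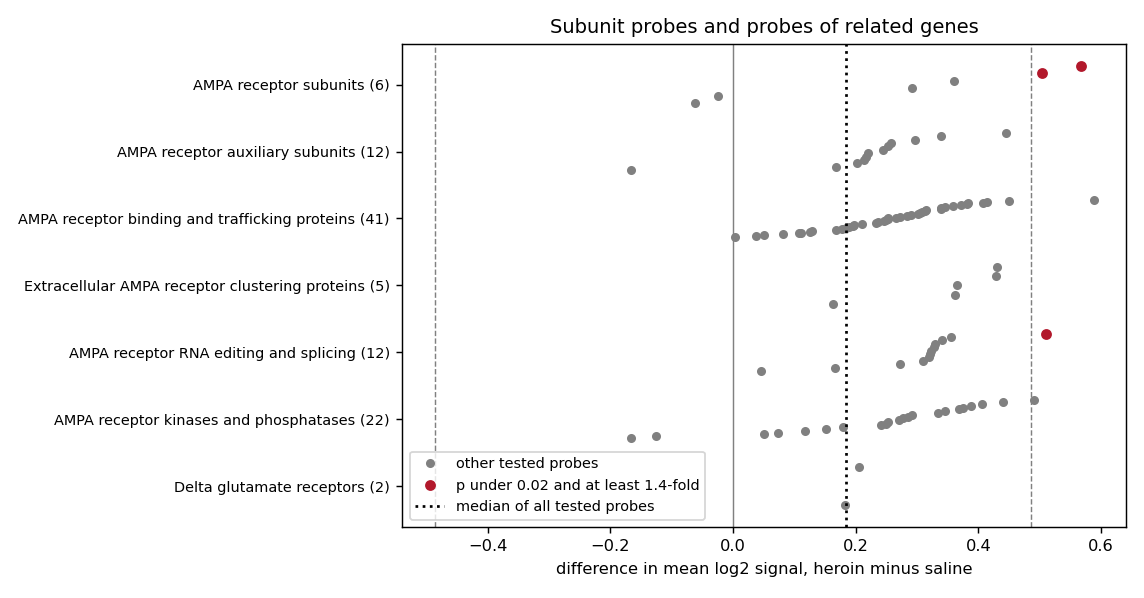
Difference in mean log2 signal, heroin minus saline, of the 6 subunit probes (top row) and of the probes of 6 lists of related genes (number of probes in brackets). Dashed lines mark 1.4-fold, the dotted line the median of all tested probes at 0.18, and red points passed both thresholds: 2 Gria2 probes and 1 Elavl4 probe.

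The genes that followed each subunit most closely from rat to rat were found as those with the smallest SD of the log2 ratio to its brightest probe over the 11 rats, among 6084 named genes. For Gria2 they were Homer1 (SD 0.11), Rnf138 (0.12) and Asah1 (0.12), where the median gene had 0.32. Group means were not removed, so a gene with a similar group difference ranks nearer. Homer1, Rnf138 and Asah1 differed by 0.51, 0.42 and 0.40 on the log2 scale, heroin minus saline. Those nearest to Gria1 were Tpm4 (0.10), Mcl1 (0.13) and Epha7 (0.13), and those nearest to Gria3 were Arhgef12, Rsrc1 and Atrx (0.10, 0.10 and 0.11). For Gria4 (A_44_P323349) they were Kalrn (0.08), Cdk5rap2 (0.09) and Sbno1 (0.12). The 4 subunits thus had no nearest gene in common, and as a choice of the smallest among many these values are a description.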

How the data were processed

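The authors hybridised Cy3-labelled cRNA from 1 rat per array and deposited a background-subtracted signal intensity per spot (Feature Extraction 9.5.1.1 per the file headers), not scaled between arrays. Relative values that the authors deposited, a ratio for every probe and rat, served as an alternative. Control spots and spots marked non-uniform or outlying were left out, signals under 5 were set to 5, spots of a probe were averaged, arrays were scaled by the 50th percentile of their non-control probes, and log2 was taken. A probe was tested if at least 0.5 of its spots were well above background on all 11 arrays and at least 2 arrays per group had a usable spot. Groups came from the sample records, each array being a separate rat. Comparisons were two-sided and used limma 3.58.1 (R 4.3.3), with p adjusted by Benjamini-Hochberg across all 25555 tested probes. A probe passed at an unadjusted p under 0.02 and at least 1.4-fold, limits that the study applied to a test without equal variances (the methods' t-test). Single probes were also tested by exact permutation. The fits were first tested on simulated data.

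The text names every subunit probe, the genes of the lists with a passing probe or, if fewer than 10, the 10 whose brightest probe had the smallest p, and the 3 genes most like each subunit. Further genes of the lists (Adarb1, Cacng2, Cacng3, Cacng8, Grip1, Grip2, Pick1 and Nsf) were added for their known roles. The members and lists were chosen with earlier results of these data known. Alternatives were other scalings, background corrections and detection filters, the methods' t-test and eBayes options. They also included blocks by replicate number or slide, averages per gene, and leaving out each rat. Slides were inferred from a shared scan time, so the slide blocks group the arrays as the replicate numbers do and are not a separate check. The number of arrays limits precision. The methods state 6 saline rats, of which 5 were analysed here. Figures were drawn with matplotlib 3.10.9.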

Additional observations from a re-analysis of the deposited data

Results flagged for a closer look

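Of 40 groups of values searched for a sample far from the rest of its group, 3 held one, where chance gives about 1 in 20. Heroin rat 5 had a Gria2 share of 43.0% of the summed subunit signal, with the next heroin rat at 32.3%. Its Gria2 signals were 25.8 array medians on A_44_P289630, within the range of the other heroin rats, and 29.8 on A_44_P289627, the highest. Its signals of Gria1 (9.20), Gria3 (21.8) and Gria4 (7.55 and 4.33) were the lowest among the heroin rats. Heroin rat 6 had 61.3 array medians for Rab11a (A_44_P554795), with the next at 48.7. Heroin rat 3 had 7.98 array medians for Olfm2 (A_44_P532417), with the next at 6.50.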

How the results depend on the processing

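The Gria2 calls depended on the scaling. With the 75th percentile the probes A_44_P289630 and A_44_P289627 differed by 0.35 and 0.29 on the log2 scale, with quantile normalization by 0.32 and 0.26, and with the median of the tested probes, a scaling chosen after seeing the data, by 0.38 and 0.31. Under each of these 3 scalings, 0 subunit probes and 0 probes of the related genes passed. With normexp A_44_P289627 was at 0.43, and with the methods' t-test at 0.50 with its p above 0.02, which left 1 subunit probe in each. Gria1, Gria3 and both Gria4 probes did not pass under any alternative run. The small differences of Gria3 and of A_44_P323349 of Gria4 turned positive on the main scale without heroin rat 5 (0.11 and 0.06) or saline rat 4 (0.03 and 0.01), that of Gria3 also without saline rat 5 (0.04) and that of A_44_P323349 without saline rat 3 (0.02). The count over all probes was 694 on the main scale, 779 with the 75th percentile, 676 with the median of the tested probes and 457 with quantile normalization. It was 126 with normexp, 308 with the methods' t-test, 1560 with no detection filter and 1067 with detection in 1 group. The Gria4 share differed by -2.63 points with the brightest probe alone.

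Leaving out 1 rat at a time gave 0.48 to 0.67 for A_44_P289630 and 0.39 to 0.65 for A_44_P289627, with 0 to 2 subunit probes passing (0 without saline rat 2), 0 to 9 probes of related genes (9 without saline rat 5) and 345 to 2356 of all probes (345 without saline rat 2, 394 without saline rat 3 and 2356 without saline rat 5). Shares ranged over 0.211 to 1.67 points for Gria1, 4.59 to 7.75 for Gria2, -8.30 to -5.76 for Gria3 and -0.766 to -0.173 for Gria4.

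With the replicate number as a block the Gria2 probes differed by 0.60 and 0.52, the same 2 probes passed, and the count over all probes was 790 against 694. The numbers did not clearly pair the rats, since the deviations of same-numbered rats correlated at 0.38, -0.13, 0.35, 0.02 and -0.24, and heroin rat 4 alone correlated best with its own number (heroin rats 4 and 5 after quantile normalization). The cause of these shifts was not tested.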
